A study of Homo sapiens with 4 samples.

Results

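MHC class I molecules display peptides from inside the cell to CD8 T cells and natural killer cells. The 9 genes described here encode the class I heavy chains HLA-B, HLA-C and HLA-E, their shared light chain B2M, the peptide transporter TAP1 and TAP2, the loading factor TAPBP, and the immunoproteasome subunits PSMB8 and PSMB9. They were taken by name and function out of 57820 genes counted, with earlier results of these data known. Each symbol matched 1 Ensembl identifier. Of these 9 genes, 8 passed the filter on low counts and were tested, and PSMB8 did not.

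Peptides are cut from cytosolic proteins by the proteasome, carried into the endoplasmic reticulum by the TAP1-TAP2 transporter, and fitted with the help of tapasin (TAPBP), calreticulin and the disulfide isomerase PDIA3 into a heavy chain that is already paired with B2M. A heavy chain without B2M or without peptide is unstable and is mostly retained. Transcription of the pathway is held up in unstimulated cells by the activator NLRC5 and the RFX factors, and interferon raises it, in part through the IRF factors. The pathway is known to be held down by Polycomb repressive complex 2 in a number of tumor lines.

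Transcripts were counted by stranded RNA-seq of polyadenylated RNA in untreated HAP1 cells, a human line with a nearly haploid genome. The dKO group (2 libraries) lacked RING1A and RING1B, the enzymes that place ubiquitin on histone H2A lysine 119, and the tKO group (2 libraries) lacked BAP1, which removes that mark, in addition to both. All 4 libraries therefore came from cells in which both enzymes of PRC1 had been targeted, and no library of cells with intact PRC1 was analysed here. Per the methods of the study, BAP1 and RING1A were disrupted by an inserted STOP cassette, RING1B-deficient cells were bought, and edited cells were used as selected clones. Whether the libraries of a genotype came from 1 clone or several is not given in the sources used here, and the p-values measure only the spread between these libraries.

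Libraries held between 16054590 and 18455410 counts in genes, with lower totals in both tKO libraries. Levels are given as counts scaled by these totals to a common depth (CPM), and 3 counts, the smallest level taken as detectable, correspond to between 0.163 and 0.187 CPM. BAP1 stood at 7.32% of its dKO level in tKO. RING1, the gene for RING1A, had between 12 and 17 counts in every library, and RNF2, the gene for RING1B, had between 1102 and 1561, so transcript counts do not check the loss of RING1B. Markers of blood and antigen-presenting cells were nearly absent: 4 of 8 (CD3E, ITGAX, ITGAM and SPI1) had 0 counts in all libraries, no marker passed 5 counts, and their summed level lay between 0.271 and 0.723 CPM in dKO and between 0.187 and 0.548 CPM in tKO.

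Promoters of class I genes are known for a small set of shared control elements. To show where these letters stand, the sequences printed are those of HLA-B, HLA-C, B2M, TAP1 and TAPBP. Each is the 250 bases before the transcription start in RefSeq (GRCh38.p14), 5′ to 3′ on the strand of the gene. They are reference sequence and not that of HAP1, whose alleles were not analysed here. Capitals mark 4 motifs searched on both strands: TGACG (the core of the X2 or cyclic AMP response element), ATTGG (the Y box, CCAAT on the other strand), GAAANNGAA (the interferon-stimulated response element) and GGGATTCCC (a kappa-B site). Matches of the same motif may overlap.
HLA-B (chr6:31357180-31357429, minus strand): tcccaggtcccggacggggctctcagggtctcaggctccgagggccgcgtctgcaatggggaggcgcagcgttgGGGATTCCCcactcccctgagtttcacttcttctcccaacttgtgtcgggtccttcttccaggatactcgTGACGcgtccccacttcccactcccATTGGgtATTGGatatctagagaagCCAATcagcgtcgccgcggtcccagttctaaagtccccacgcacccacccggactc
HLA-C (chr6:31272093-31272342, minus strand): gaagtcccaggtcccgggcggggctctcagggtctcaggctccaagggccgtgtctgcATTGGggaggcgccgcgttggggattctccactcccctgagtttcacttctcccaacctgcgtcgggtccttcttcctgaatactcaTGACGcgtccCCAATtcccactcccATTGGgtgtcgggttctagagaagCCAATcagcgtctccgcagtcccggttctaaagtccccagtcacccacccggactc
B2M (chr15:44711267-44711516, plus strand): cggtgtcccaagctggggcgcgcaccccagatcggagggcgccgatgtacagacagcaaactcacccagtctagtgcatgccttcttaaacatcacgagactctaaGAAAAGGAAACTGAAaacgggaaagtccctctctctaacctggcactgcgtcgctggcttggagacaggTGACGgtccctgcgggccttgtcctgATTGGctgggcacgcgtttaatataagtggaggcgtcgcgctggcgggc
TAP1 (chr6:32853705-32853954, minus strand): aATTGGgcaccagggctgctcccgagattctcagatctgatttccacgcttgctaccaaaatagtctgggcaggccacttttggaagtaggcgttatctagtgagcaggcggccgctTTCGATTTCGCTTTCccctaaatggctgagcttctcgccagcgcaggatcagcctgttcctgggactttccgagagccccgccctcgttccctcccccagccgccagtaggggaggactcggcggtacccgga
TAPBP (chr6:33314079-33314328, minus strand): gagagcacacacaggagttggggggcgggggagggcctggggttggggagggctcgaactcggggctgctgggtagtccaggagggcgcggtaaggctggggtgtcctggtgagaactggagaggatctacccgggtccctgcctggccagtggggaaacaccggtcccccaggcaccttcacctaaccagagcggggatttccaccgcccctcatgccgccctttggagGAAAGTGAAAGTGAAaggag

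A promoter was found for 8 of the 9 genes, in 10 windows. HLA-E had no entry. In HLA-B, HLA-C and B2M a TGACG on the gene's own strand was followed by an ATTGG closer to the start. The TGACG began 106, 105 and 75 bases before the start in these 3 genes. TGACG was present in 21.2% and ATTGG in 32.0% of the 35116 promoter windows of the same length. HLA-B alone of the printed promoters held the exact letters GGGATTCCC, which occurred in 0.362% of windows. Other forms of a kappa-B site were not searched. The related letters gggactttcc in TAP1 and gggaaagtccc in B2M were thus left unmarked. The response element letters occurred in 6.88% of windows, and were found in B2M, TAP1, TAPBP and TAP2. Only these exact letters and their reverse complement were searched. The mirrored form tttcacttc, which stands in lower case in HLA-B and HLA-C, was not part of the search. Absence of a match therefore does not show that a promoter lacks the element. In TAPBP they began 20 and 14 bases before the start. PSMB9 and PSMB8 held a TGACG but no response element letters in these windows. In RefSeq the starts of TAP1 (its more upstream one) and PSMB9, which are transcribed away from each other, lie 488 bases apart. The span given below for PSMB9 comes from another annotation (GENCODE on GRCh37) and covers that of TAP1. A match of letters is a description and shows no binding.

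Of the 3 heavy chains of the set, HLA-B had by far the most counts. HLA-B (ENSG00000234745.5, minus strand of GRCh37 chromosome 6, 31321649 to 31334844) had 1133 and 1392 counts in dKO, and 946 and 1018 counts in tKO. These counts correspond to 61.4 and 77.4 CPM in dKO and to 57.6 and 63.4 CPM in tKO. The groups overlapped, because tKO 2 lay above dKO 1. HLA-B overlaps annotation on the other strand, and its unstranded count was 85.3% of the stranded one. Its log2 fold change (tKO over dKO) was -0.18 ± 0.14 (SE), and the 95% interval, not adjusted for the number of genes, ran from -0.51 to 0.14 (limma adjusted p = 0.996).

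HLA-C (ENSG00000204525.10, minus strand of chromosome 6, 31236526 to 31239907), a classical heavy chain like HLA-B and the main ligand of killer immunoglobulin-like receptors, was at 5.04 and 4.84 CPM in dKO. In tKO it was at 5.12 CPM in library 1 and at 3.49 CPM in library 2. Only tKO 2 stood below dKO, at 70.7% of the dKO mean, while tKO 1 was at 103.7%. HLA-E (ENSG00000204592.5, plus strand of chromosome 6, 30457286 to 30461971), which presents leader peptides of other class I chains to the NKG2A receptor, was at 3.09 and 3.89 CPM in dKO and at 3.53 and 2.99 CPM in tKO, and these groups overlapped as well. The log2 fold changes were -0.21 ± 0.27 (SE) for HLA-C and -0.09 ± 0.27 (SE) for HLA-E (limma adjusted p = 0.996 for both).

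B2M (ENSG00000166710.13, plus strand of chromosome 15, 45003556 to 45011049) was the member with the smallest p-value. It had 7278 and 7437 counts in dKO, and 5172 and 4446 counts in tKO. Its level was 394 and 413 CPM in dKO, and 315 and 277 CPM in tKO. Both tKO libraries thus lay below both dKO libraries, at 78.0% and 68.6% of the dKO mean. As these are bulk libraries, fewer cells with the transcript and less transcript per cell cannot be told apart. The group means were 404 ± 13.4 CPM (SD, n = 2) and 296 ± 27.0 CPM (SD, n = 2). The log2 fold change was -0.45 ± 0.10 (SE), with a 95% interval from -0.69 to -0.20. The unadjusted p-value of 0.00354 ranked 58 among the 15136 tested genes. After Benjamini-Hochberg adjustment over these genes it was 0.914 in limma, so the difference did not pass the threshold. Without tKO 1 the adjusted p-value was 2.2e-05 and without tKO 2 it was 0.0655 in limma, both with the spread taken mostly from the dKO pair, and the fold change stayed under the required 2-fold difference (a log2 value of 1 in size).

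The 108 tested genes between 40 and 50 Mb of chromosome 15, where B2M lies, were centred near the dKO mean, with median log2 ratios of 0.04 in tKO 1 and 0.00210 in tKO 2. Of these 108 genes, 18 (16.7%) were lower in both tKO libraries than in both dKO libraries, against 16.3% of all tested genes. Whether a smaller stretch around B2M differed was not tested. In the MHC region (chromosome 6, 28 to 34 Mb), which holds the other 8 members, the 93 tested genes had medians of 0.05 in tKO 1 and 0.03 in tKO 2.

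**Figure D1:**
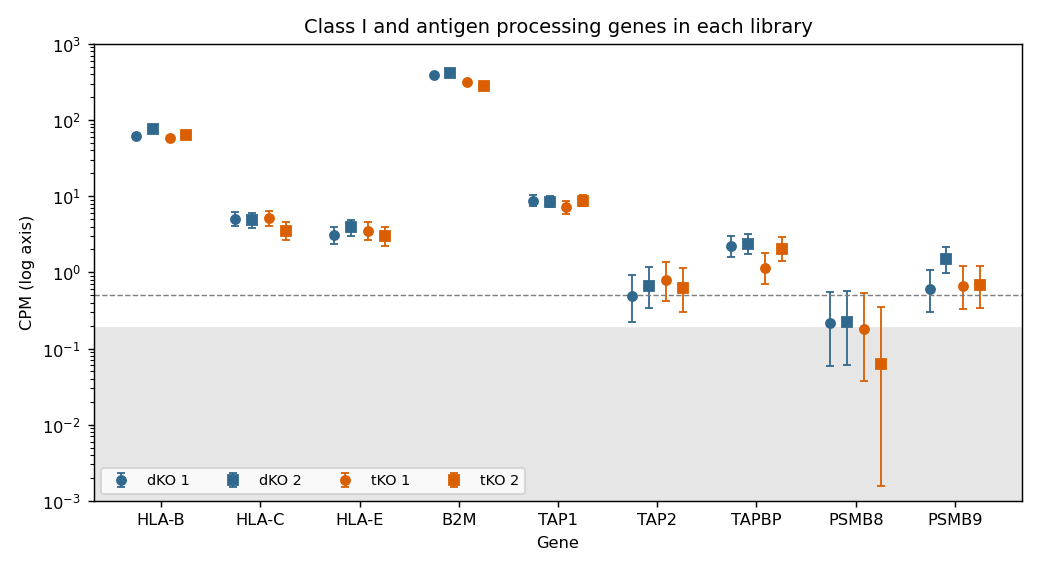
Level of each of the 9 genes in each library, in CPM on a log axis, with exact Poisson 95% intervals that cover counting error only. The dashed line marks the filter at 0.5 CPM and the gray band the levels under 3 counts; B2M is the gene in which the tKO points clear both dKO points by more than the intervals, and PSMB8 lies in or close to the band in every library.

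The transporter genes differed in level from each other. TAP1 (ENSG00000168394.9, minus strand of chromosome 6, 32812986 to 32821593) had 162 and 153 counts in dKO, and 117 and 141 counts in tKO. Its level was 8.78 and 8.50 CPM in dKO and 7.13 and 8.78 CPM in tKO, so that tKO 2 was no lower than dKO. TAP2 (ENSG00000204267.9, minus strand of chromosome 6, 32789610 to 32806516), the partner chain of the transporter, had only 9 and 12 counts in dKO, and 13 and 10 counts in tKO. Its level of 0.488 CPM in dKO 1 had a counting interval from 0.223 to 0.926 CPM, which holds the values of all other libraries. The log2 fold changes were -0.12 ± 0.20 (SE) for TAP1 and 0.26 ± 0.39 (SE) for TAP2 (limma adjusted p = 0.996 for both). TAP2 was the 1 tested member with a positive value.

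TAPBP (ENSG00000231925.7, minus strand of chromosome 6, 33267471 to 33282061), which bridges TAP and the heavy chain, had 41 and 43 counts in dKO. In tKO it had 19 counts in library 1 and 33 counts in library 2. These are 2.22 and 2.39 CPM in dKO against 1.16 and 2.06 CPM in tKO, so the groups did not overlap. The difference rested mainly on tKO 1, at 50.2% of the dKO mean, with tKO 2 at 89.1%. Its log2 fold change was -0.54 ± 0.35 (SE; limma adjusted p = 0.996). Without tKO 1 it was -0.16 and without tKO 2 it was -0.91.

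Immunoproteasome subunits replace the standard catalytic subunits of the proteasome, chiefly after interferon. PSMB9 (ENSG00000240065.3, plus strand of chromosome 6, 32811913 to 32827628) had 11 and 27 counts in dKO, and 11 counts in each tKO library. The library dKO 2 stood apart, at 1.501 CPM against 0.596 CPM in dKO 1, and both tKO libraries (0.670 and 0.685 CPM) lay close to dKO 1. The log2 fold change was -0.43 ± 0.48 (SE; limma adjusted p = 0.996). It was 0.15 without dKO 2. PSMB8 (ENSG00000204264.4, minus strand of chromosome 6, 32808494 to 32812456) had 4 counts in each dKO library, and 3 and 1 counts in tKO. The summed counts of 8 in dKO and 4 in tKO give a ratio of 0.561 with an exact counting interval from 0.124 to 2.10, and a difference was not detectable at this depth.

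The profile of PSMB9 had the widest range of the tested members over the libraries, 1.16 on the log2-CPM scale. Among 12796 other genes with a mean log2-CPM above 1, the profiles nearest to it were those of PRKACB-DT, CELF5, GIPR, ENSG00000272769 and OLMALINC, at Euclidean distances between 0.249 and 0.291 over the 4 libraries. All 5 were highest in dKO 2, which follows from picking them for likeness to PSMB9, itself highest there. The counting intervals of PSMB9 overlapped between dKO 1 (0.2975 to 1.066 CPM) and dKO 2 (0.989 to 2.184 CPM). Such an overlap does not show that counting error covers the difference, which was not tested. These profiles also share the libraries and their depth.

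**Figure D2:**
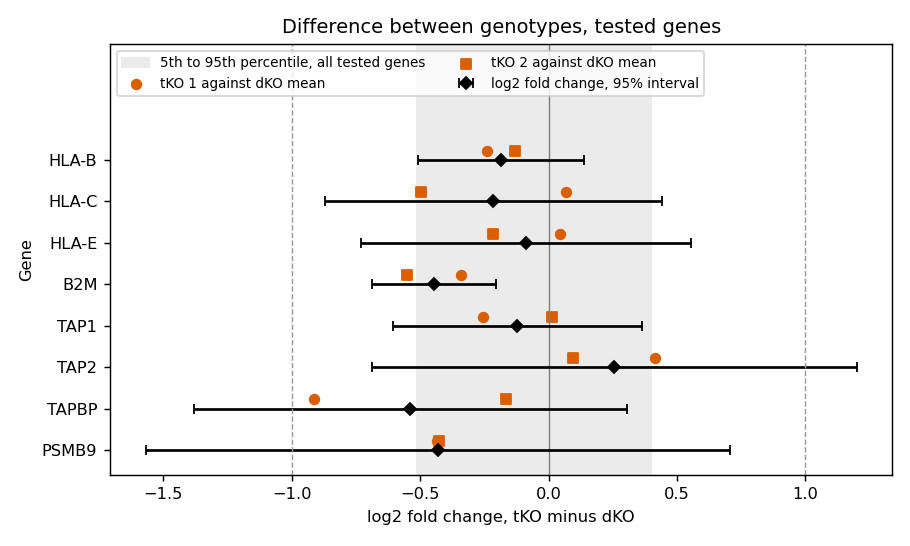
Log2 fold change of the 8 tested genes (tKO minus dKO, black diamonds, with unadjusted 95% intervals) and the log2 ratio of each tKO library to the dKO mean (orange). The interval of B2M alone lies below 0, the dashed lines mark a 2-fold difference, and in HLA-C, HLA-E and TAP1 the tKO libraries fall on opposite sides of 0.

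Across the set, 0 of the 8 tested members passed the definition of a differentially expressed (DE) gene used here, an adjusted p-value below 0.05 with an absolute log2 fold change above 1. Over all 15136 tested genes this share was 0.0132%, or 2 genes. At an unadjusted p-value below 0.05 the count was 1 member (B2M), against 3.55% of all tested genes. By edgeR's quasi-likelihood test and by DESeq2 the number of DE members was 0 as well. Each put 1 member below an unadjusted p-value of 0.05, against 530 (edgeR) and 321 (DESeq2) of all 15136 tested genes. In 2 of the 8 (B2M and TAPBP) both tKO values lay below both dKO values, which was so for 16.3% of all tested genes. The median log2 fold change was -0.20 over the 8 members, of which 7 were negative, and -0.00137 over all tested genes, of which 50.3% were negative. Without dKO 2 the median was -0.09, with 5 of 8 negative.

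Levels of different genes were compared per length, as CPM per kb of the canonical transcript. In dKO the order was B2M (428 ± 14.3), HLA-B (45.2 ± 7.36), TAP1 (3.22 ± 0.0720), HLA-C (3.20 ± 0.0933), HLA-E (1.37 ± 0.223), PSMB9 (1.03 ± 0.629), TAPBP (0.668 ± 0.0345), PSMB8 (0.195 ± 0.00352) and TAP2 (0.102 ± 0.0225 CPM per kb, SD, n = 2 for each). TAP1 and HLA-C did not differ beyond their spread, and neither did HLA-E and PSMB9 or PSMB9 and TAPBP. The SD of PSMB8 comes from 4 counts in each dKO library and leaves out counting error. Its place above TAP2 in dKO is therefore uncertain. The tKO libraries gave B2M 314 ± 28.6, HLA-B 39.4 ± 2.66 and TAP1 2.96 ± 0.436 CPM per kb (SD, n = 2). In tKO TAP2 (0.125 ± 0.0212 CPM per kb) and PSMB8 (0.109 ± 0.0758 CPM per kb) stood in the opposite order, within their spread. These levels are uncertain for the HLA genes, since reads that map equally well to several class I genes were not counted. Reads were also mapped to the reference genome and not to the alleles of HAP1. The part either of these plays was not tested.

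HLA-B made up 90.7 ± 1.14% (SD, n = 2) of the summed level of the 3 heavy chains of the set (HLA-B, HLA-C and HLA-E, per length) in dKO and 90.6 ± 2.45% (SD, n = 2) in tKO. B2M was 9.41 and 7.96 times this sum in the dKO libraries, and 7.91 and 6.57 times in the tKO libraries. Both tKO ratios were the lowest, but tKO 1 differed from dKO 2 by less than the dKO libraries differed from each other. TAP1 was 37.8 and 26.8 times TAP2 per length in dKO, and 18.9 and 29.6 times in tKO, with the counting error of TAP2 given above.

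The standard proteasome subunits PSMB5, PSMB6 and PSMB7, chosen for this comparison as the counterparts of PSMB8, PSMB9 and PSMB10 after their values had been seen, were far more abundant. Summed per length they reached 558 and 528 CPM per kb in dKO, and 531 and 607 CPM per kb in tKO. The immune subunits summed to 1.55 and 3.10 CPM per kb in dKO, and to 1.44 and 1.75 CPM per kb in tKO. The ratio was 359 and 171 in dKO and 367 and 347 in tKO, and the lowest ratio was that of dKO 2, the library with the higher PSMB9.

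**Figure D3:**
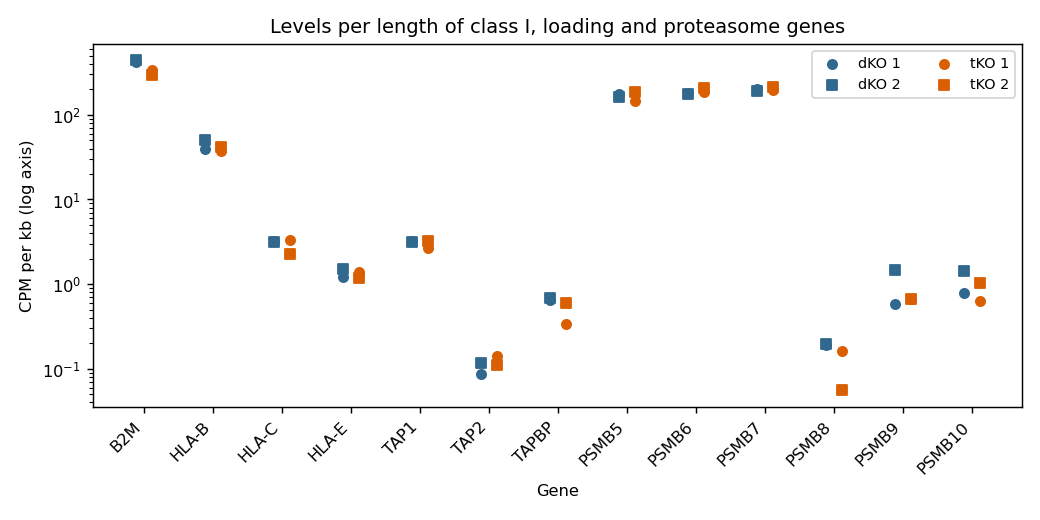
CPM per kb of canonical transcript, on a log axis, for class I chains, loading genes and both kinds of proteasome subunit, with 1 point per library. B2M stands above HLA-B and HLA-B above HLA-C and HLA-E in every library, and PSMB5, PSMB6 and PSMB7 lie above 100 CPM per kb while their immune counterparts lie below 2.

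The other genes of the pathway were described from lists. Of 80 further genes, 57 were tested, 0 were DE, and 4 had an unadjusted p-value below 0.05 in limma, against 3.55% of all tested genes. Of these 57 genes 32 had negative and 25 positive log2 fold changes, against 50.3% negative over all tested genes, and the median was -0.02. With the members included, edgeR and DESeq2 each called 0 of the 65 tested genes DE, with 4 below an unadjusted p-value of 0.05. Over all 15136 tested genes, 530 in edgeR and 321 in DESeq2 were below that p-value. Among the regulators (23 of 23 tested, 0 DE, 2 at an unadjusted p-value below 0.05 in limma against 3.55% of all tested genes, median -0.03), NFYB, a subunit of the factor that binds the Y box and an abundant member of the list, had a log2 fold change of -0.01, with the tKO libraries on opposite sides of dKO (-0.30 without tKO 1 and 0.27 without tKO 2). The regulator with the largest difference was NLRC5, the class I transactivator, at 15.4 and 17.2 CPM in dKO and 8.29 and 12.8 CPM in tKO. Both tKO values were below both dKO values, and the log2 fold change was -0.65 ± 0.23 (SE) (unadjusted p = 0.0293, adjusted p = 0.996 in limma).

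IRF2, a factor of the interferon response, followed, with a log2 fold change of -0.38 ± 0.18 (SE; limma adjusted p = 0.996). RFX5, which binds the X box of class I promoters and is named here because it was the other regulator with an unadjusted p-value below 0.05, was at 61.1 and 71.2 CPM in dKO. It was at 53.0 and 49.8 CPM in tKO, with no overlap of the groups and a log2 fold change of -0.36 ± 0.12 (SE) (limma adjusted p = 0.996). Over the 23 regulators, 6 were lower and 3 higher in both tKO libraries than in both dKO libraries, against 16.3% lower and 15.1% higher over all tested genes. Without tKO 2 the adjusted p-value of NLRC5 was 0.000455 in limma, at a log2 fold change of -0.95, and without tKO 1 it was 0.364, at -0.35. For RFX5 it was 0.0195 without tKO 1, at -0.41, and 0.299 without tKO 2, at -0.30. These fits take their spread mostly from the dKO pair, and no value reached a log2 fold change of 1 in size.

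Of the loading and trimming genes 8 of 9 were tested and 0 were DE, and the median was 0.02. In limma 0 had an unadjusted p-value below 0.05, against 3.55% of all tested genes. The chaperone genes CANX and CALR of this list were abundant and nearly level between genotypes. CANX was at 1160 ± 26.3 CPM in dKO and CALR at 723 ± 26.1 CPM (SD, n = 2), with log2 fold changes of 0.02 and -0.03 and 95% intervals from -0.19 to 0.22 and from -0.25 to 0.19. The largest differences were those of UGGT1, which checks the folding of glycoproteins, at 0.20, and of the trimming peptidase ERAP1 at -0.11. In the other proteasome genes (9 of 9 tested, 0 DE and 0 at an unadjusted p-value below 0.05 in limma, median 0.06) the most abundant were PSME3 and PSMA3. The largest log2 fold changes there were -0.35 for PSMB10, which had between 10 and 25 counts, and -0.19 for the activator subunit PSME1. PSME1 was at -0.35 without tKO 1 (limma adjusted p = 0.0361) and at -0.03 without tKO 2, and PSMB10 was at 0.03 without dKO 2.

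Of other class I and class I-like genes, 7 of 12 were tested and 0 were DE, and the median was -0.13. In limma 1 had an unadjusted p-value below 0.05, against 3.55% of all tested genes. HLA-G, which had between 18 and 26 counts, had a log2 fold change of 0.29. It was 0.04 without dKO 1 and 0.54 without dKO 2. HLA-F, HFE and CD1D had 0 counts in every library, where the floor of 3 counts stands at 0.163 to 0.187 CPM. Class II genes, which serve professional antigen-presenting cells, were not tested in any case: 8 of 12 had 0 counts in all libraries, among them CD74 and CIITA, and the highest count of any was 7.

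**Figure D4:**
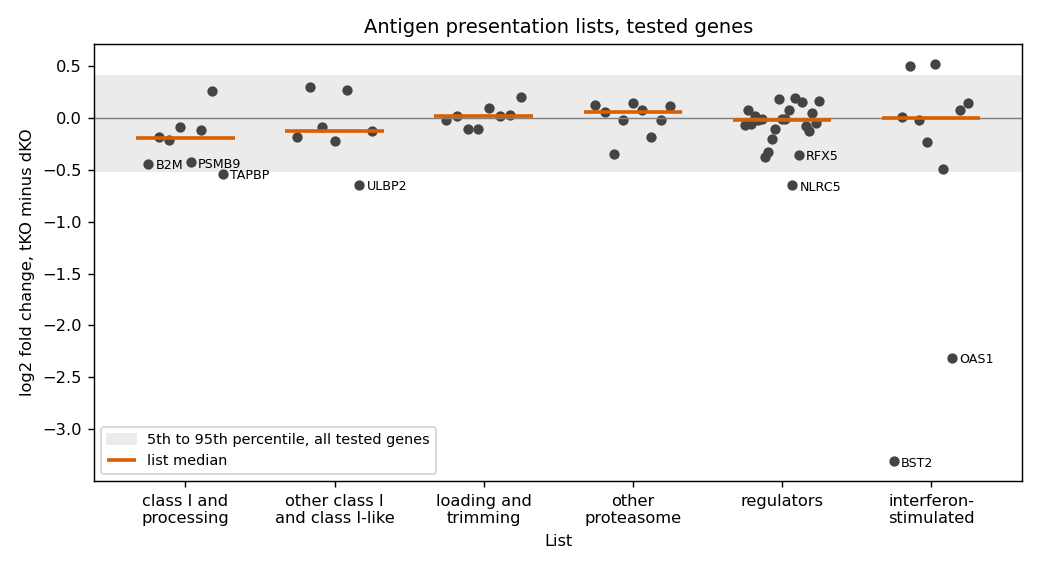
Log2 fold changes (tKO minus dKO) of the tested genes in each list, with the list median in orange and the 5th to 95th percentile of all tested genes (-0.51 to 0.40) in gray. Most points lie inside the gray band, with OAS1 and BST2 of the interferon-stimulated list far below it.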

How the data were processed

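Gene counts came from 4 libraries, 2 per genotype, grouped by the labels. Per the labels and the methods of the study, the authors trimmed reads with cutadapt (1.12) in Trim Galore (0.4.4), removed ribosomal reads with Bowtie (1.2), and mapped to GRCh37 with STAR (2.5.2b). The deposited values were raw counts of uniquely mapped reads per GENCODE 19 gene. The antisense column was used, and sense reads made up between 4.01% and 4.24% of stranded reads. Of the members only HLA-B and TAP1 had fewer unstranded counts (85.3% and 94.8%), since the unstranded column drops reads where genes of both strands overlap.

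Symbols, GRCh37 positions and canonical transcript lengths were from GENCODE 44 lifted to that build. Genes above 0.5 CPM in at least 2 libraries were kept, and log2-CPM (TMM, prior count 2) was fitted with limma (3.58.1; edgeR 4.0.16, R 4.3.3), with a mean-variance trend and genotype alone. This scale understates the change of low genes. P-values were adjusted by Benjamini-Hochberg over all 15136 tested genes. The fit was tested on simulated data. Alternatives included edgeR's quasi-likelihood test, DESeq2 (1.42.0), other filters and the replicate block. All members were named, and from each other list the 2 most abundant genes and the 2 with the largest log2 fold changes, of which some genes are not reported here. Members and lists were chosen with earlier results of these data known.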

Additional observations from a re-analysis of the deposited data

How the results depend on the processing

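The number of DE members was 0 under all 15 alternatives. Of the wider list of 89 genes 0 were DE in each alternative except those that left out 1 tKO library: leaving out each library in turn gave between 0 and 2, namely OAS1 and BST2 without tKO 1 and OAS1 alone without tKO 2. In these fits the lone tKO library is assumed to vary like the dKO pair. Over all genes the number of DE genes was 2, against 25 with DESeq2 and 13 with the replicate block. It was 1 with CPM above 5, without trend, with unstranded counts and with edgeR's quasi-likelihood test. With no filter it was 0 of 26082 tested genes, of which 1447 had an unadjusted p-value below 0.05 in limma. The number also moved when 1 library was left out.

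Leaving out 1 library moved the median of the members to between -0.292 and -0.0914. The log2 fold change then ranged from -0.344 to -0.0287 for HLA-B (the latter without dKO 2) and from 0.0748 to 0.434 for TAP2. It ranged from -0.496 to 0.0673 for HLA-C, from -0.240 to 0.0649 for HLA-E (0.0649 without dKO 2 and 0.0428 without tKO 2), from -0.257 to 0.0148 for TAP1 and from -1.01 to 0.15 for PSMB9, all of which changed sign. Of 116 member values under alternatives, 111 kept their direction and 5 reversed. B2M stayed between -0.55 and -0.34. Its adjusted p-values ran from 2.2e-05 to 1 (limma), with 0.272 in DESeq2. The cause was not tested. The replicate block left the median at -0.20 and B2M at -0.45 (limma adjusted p = 0.655). Same-numbered libraries share a number only (correlation of deviations from the group means 0.0569), and the block changed no call on a member. Genes under about 50 counts (TAP2, TAPBP, PSMB8 and PSMB9) are limited by depth.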

Other observations

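The class I-like ligands of the natural killer cell receptor NKG2D included 5 tested genes. Negative log2 fold changes were found in 4 (ULBP2, ULBP3, MICA and MICB), against 50.3% of all tested genes. The other 1 of these ligands, ULBP1, had a positive value. ULBP1, the most abundant of them, was at 39.5 and 42.7 CPM in dKO and 51.4 and 47.0 CPM in tKO, a log2 fold change of 0.26 ± 0.12 (SE). ULBP2 was at 3.85 and 3.95 CPM in dKO and 2.74 and 2.18 CPM in tKO, a log2 fold change of -0.64 ± 0.27 (SE). The values of MICA (-0.09), MICB (-0.23) and ULBP3 (-0.13) were smaller in size. None of the 5 passed the threshold (limma adjusted p = 0.996 for each).

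Of 15 interferon-stimulated genes 5 did not pass the filter, 0 were DE, and the median log2 fold change of the 10 tested was -0.01. In limma 1 (OAS1) had an unadjusted p-value below 0.05, against 3.55% of all tested genes. OAS1, a sensor of double-stranded RNA, was counted 14 and 27 times in dKO but 2 times in tKO 1 and 2 times in tKO 2. The summed counts of 41 and 4 give a ratio of 0.109, with an exact counting interval from 0.0285 to 0.302 (adjusted p = 0.767 in limma). BST2, a membrane protein that tethers budding viruses, was at 111 and 114 CPM in dKO, 71.6 CPM in tKO 1 and 1.68 CPM in tKO 2 (log2 fold change -3.31 ± 1.47 (SE), limma adjusted p = 0.996). Its log2 fold change was -5.98 without tKO 1 and -0.64 without tKO 2. The 169 tested genes between 12 and 22 Mb of chromosome 19, around BST2, had a median log2 ratio to dKO of 0.02 in tKO 2. The 24 tested genes between 20 and 30 Mb of that chromosome, which do not include BST2, had medians of 0.04 in tKO 1 and -1.32 in tKO 2, and the part of this in the BST2 value was not tested. DTX3L, the most abundant gene of the list after BST2, had a log2 fold change of 0.01.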
